A study of Mus musculus with 12 samples.

Results

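The comparison described here set 3 libraries of mouse bone marrow progenitors labelled NICD_TCFKO (data columns RNIC.Tg) against 3 labelled NICD_TCFWT (data columns RNIC.CTRL), taken from a series of 12 RNA sequencing libraries in 4 groups. The 6 libraries were chosen by their labels alone. The cells were LSK cells, the fraction of marrow that lacks lineage antigens (Lin-) and carries Sca-1 and c-Kit, in which the blood stem cells and early progenitors are found. Per the labels, the NICD_TCFWT mice were R26 N1IC lox/+ Mx1Cre, in which Cre turns on the intracellular domain of Notch1 (N1IC), and the NICD_TCFKO mice were R26 N1IC lox/+ Tcf7 lox/lox Mx1Cre, in which Cre should also delete Tcf7. Both groups therefore shared the N1IC transgene, the Mx1Cre driver, its induction with 2 ug poly(I:C) per g body weight, the C57BL/6J; Sv/129 background and a sort gate of CD45.2+ eGFP+ LSK cells. The question the labels set was what the loss of Tcf7 does to progenitors with active Notch1. The remaining groups were labelled as wild type mice given poly(I:C) (NOTCHWT_TCFWT, data columns RAD) and Tcf7 lox/lox Mx1Cre mice (NOTCHWT_TCFKO, data columns Tcf7.Tg). These were sorted as LSK cells without the CD45.2 and eGFP gate. Mx1Cre is driven by an interferon-inducible promoter and acts in many cell types. Age, sex, pooling of mice and the origin of the replicates were not given in the sources used here, so the p-values below reflect no more than how far these libraries differ, which may be technical in part. By Xist each of the groups compared held libraries of both sexes, so its libraries were not all copies of the same sample. Whether libraries of the same sex came from separate mice is not known.

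Notch1 is a surface receptor whose intracellular domain, once cut free, joins the DNA-binding protein Rbpj and turns on target genes such as Hes1, Dtx1 and Nrarp. In progenitors that reach the thymus this signal starts the T cell programme, in which Tcf7 (the factor TCF-1), Gata3 and Bcl11b are switched on, the pre-T cell receptor and CD3 chains appear, and stem cell and myeloid regulators are switched off. LSK cells normally stand before that step.

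The levels of Tcf7 and Notch1 went against the labels. Tcf7 (ENSMUSG00000000782, chr11:52252371-52283014, minus strand, mm10) was at 5.05, 4.68 and 6.76 CPM (the count of a gene scaled to the size of its library) under the NICD_TCFWT label and at 297, 896 and 615 CPM under the NICD_TCFKO label. All 3 libraries labelled as Tcf7-deleted were thus far above all 3 labelled as Tcf7 wild type, with a log2 fold change of 6.78 ± 0.71 (SE) and an adjusted p of 0.000681 in edgeR's quasi-likelihood test. The group means of Tcf7 in the NOTCHWT_TCFWT and NOTCHWT_TCFKO libraries were 14.8 and 1.28 CPM. A count per gene does not tell which exons were read, so deletion of the floxed exons could not be checked. Notch1 (chr2:26457903-26516663, minus strand) was at 195, 188 and 157 CPM under the NICD_TCFWT label and at 591, 887 and 846 CPM under the NICD_TCFKO label, although both labels carry N1IC. The mean of Notch1 was 571 CPM in the libraries labelled wild type and 149 CPM in those labelled NOTCHWT_TCFKO, so the order of Notch1 over the 4 groups did not follow the N1IC label either. The gene count does not separate endogenous Notch1 from the transgene. Directions below are therefore those of libraries labelled NICD_TCFKO minus libraries labelled NICD_TCFWT, and not of Tcf7 loss.

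The totals of the 6 libraries ran from 35947505 to 42984907 counts, and 16024 of 39017 genes were tested. Correlations of log2 CPM over tested genes were 0.9708 to 0.9852 among the libraries labelled NICD_TCFWT, 0.9591 to 0.9712 among those labelled NICD_TCFKO and 0.9308 to 0.9657 between the groups. The gate genes Kit and Ly6a (Sca-1) did not pass the test: Kit was at 787 ± 52.2 CPM (SD, n = 3) and 644 ± 55.2 CPM, and Ly6a at 73.1 ± 18.9 and 102 ± 23.8 CPM. By Xist and Y-linked genes, 2 libraries labelled NICD_TCFWT (1 and 2) and 1 labelled NICD_TCFKO (1) came from males, and the other 3 from females. Library NICD_TCFKO 3 stood apart in markers of mature cells. The summed CPM of 12 tested neutrophil granule genes was 417 there, against 4.88 and 23.9 in its replicates and 9.59 to 41.5 in the libraries labelled NICD_TCFWT, and that of the plasma cell list was 770, against 87.8 and 206 and against 94.8 to 226. The part of these cells in the results was not tested. In bulk libraries fewer cells of a type and less RNA per cell cannot be told apart.

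The promoters of 4 genes are shown because the genes were silent or nearly so in 1 group and their windows hold a match to the Rbpj core, for which they were picked: Ptcra, Cd3e and Cd3g encode chains of the pre-T cell receptor complex and Prss2 lies beside the T cell receptor beta constant genes. Each sequence is the 250 bases upstream of the RefSeq start on GRCm38.p6, 5′ to 3′ on the strand of the gene, with matches to TGGGAA (the core of the Rbpj motif, searched on both strands, so also as TTCCCA) in capitals. The windows are chr17:46763713-46763962 (minus strand) for Ptcra, chr6:41521526-41521775 (plus strand) for Prss2, chr9:44980432-44980681 (minus strand) for Cd3g and chr9:45009612-45009861 (minus strand) for Cd3e.
Ptcra: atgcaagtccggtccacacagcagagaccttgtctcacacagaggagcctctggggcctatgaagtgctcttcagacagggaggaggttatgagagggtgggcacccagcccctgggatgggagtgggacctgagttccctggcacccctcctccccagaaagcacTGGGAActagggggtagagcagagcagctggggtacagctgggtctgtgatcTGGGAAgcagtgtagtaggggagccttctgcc
Prss2: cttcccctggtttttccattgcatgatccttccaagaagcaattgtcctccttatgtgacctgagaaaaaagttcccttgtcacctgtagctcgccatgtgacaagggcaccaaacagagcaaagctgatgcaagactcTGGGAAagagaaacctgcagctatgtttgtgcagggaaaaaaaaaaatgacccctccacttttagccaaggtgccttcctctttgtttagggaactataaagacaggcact
Cd3g: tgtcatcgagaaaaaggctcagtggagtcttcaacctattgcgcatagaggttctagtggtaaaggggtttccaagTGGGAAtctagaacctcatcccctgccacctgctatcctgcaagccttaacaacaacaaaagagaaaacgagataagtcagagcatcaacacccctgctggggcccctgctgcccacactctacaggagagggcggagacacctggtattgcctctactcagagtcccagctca
Cd3e: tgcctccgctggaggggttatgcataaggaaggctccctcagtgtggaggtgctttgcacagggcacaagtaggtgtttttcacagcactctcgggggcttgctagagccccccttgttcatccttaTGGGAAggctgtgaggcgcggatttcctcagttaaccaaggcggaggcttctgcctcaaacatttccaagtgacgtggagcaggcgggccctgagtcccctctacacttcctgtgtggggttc
Ptcra held 2 matches, at 84 and 32 bases before the start, and the other 3 held 1 each, at -111 in Prss2, -174 in Cd3g and -123 in Cd3e. Windows of 300 bases, from 250 before to 50 after the start, held TGGGAA in 25.6% of 32851 RefSeq promoters, and in any promoter of 28.3% of 27025 genes. Of the 15 genes with the largest rise, 10 had a window and 5 of these held it, and of the 15 with the largest fall 12 had a window and 3 held it. Of the Notch target genes that were higher 8 had a window and 2 held it (25%). CTTTGA, the core of the TCF/LEF motif, was in 0 of these 10 and 2 of these 12, against 18.2% of all genes. No match to TGGGAA was in the windows of Dtx1, Il2ra or Nrarp. These matches describe letters in a window and are not binding sites.

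Over all genes, 1161 were higher and 825 lower in the libraries labelled NICD_TCFKO at an adjusted p under 0.05 (7.25% and 5.15% of the genes tested, 12.4% together), while the median log2 fold change of all genes was 0.00. At least a 2-fold change was found for 484 of the higher and 339 of the lower genes, and at least an 8-fold change for 209 and 55, while the median log2 fold change was 0.74 among the higher and -0.83 among the lower genes. The 3 libraries of a group lay wholly above or below those of the other for 38% of all genes tested. Genes that were higher took up 7.93 to 8.11% of all counts in the libraries labelled NICD_TCFWT and 10.9, 13 and 12.2% in NICD_TCFKO 1, 2 and 3. NICD_TCFKO 1 was the nearest of its group to the other group: it was the lowest of the 3 for 857 of the 1161 higher genes and the highest for 570 of the 825 lower genes. The counts changed when 1 library was left out. They were 564 higher and 368 lower without NICD_TCFWT 1, 602 and 332 without NICD_TCFWT 2, 652 and 412 without NICD_TCFWT 3, 582 and 335 without NICD_TCFKO 2, and 730 and 408 without NICD_TCFKO 3, but 1463 and 1225 without NICD_TCFKO 1.

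**Figure D1:**
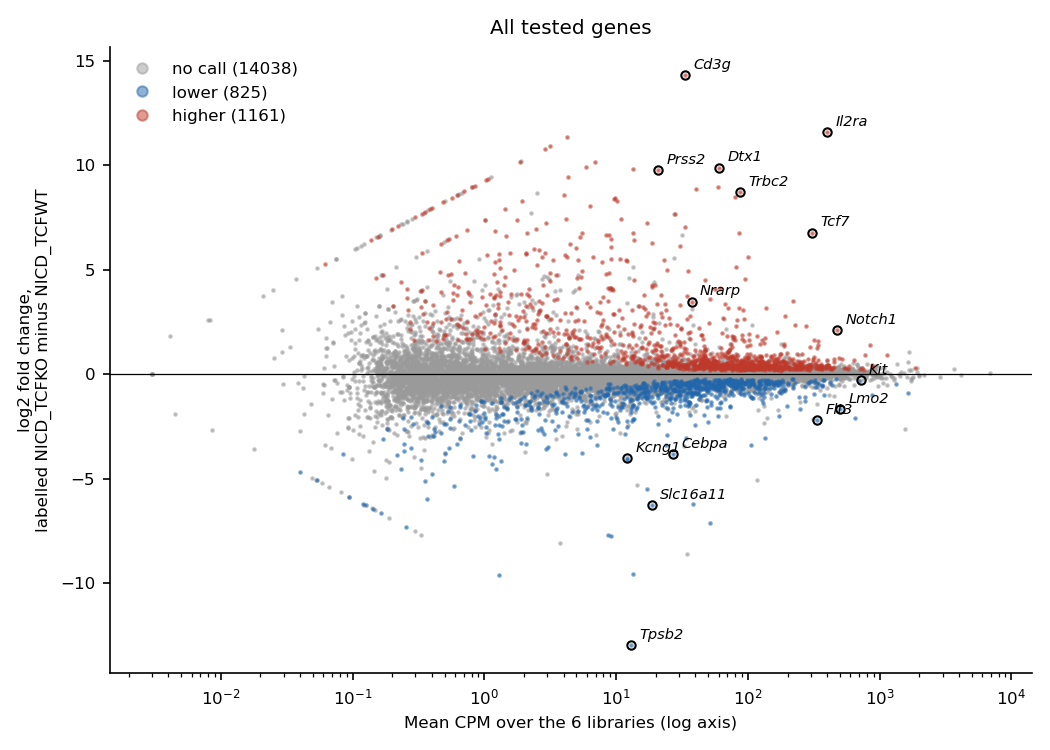
Each point is 1 of the 16024 tested genes, with its mean CPM over the 6 libraries on a log axis and its fitted log2 fold change (libraries labelled NICD_TCFKO minus NICD_TCFWT). Red and blue points are the 1161 higher and 825 lower genes, and the straight rows of points at the left are genes with no count in 1 group, whose fitted values are not bounds.

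Among the Notch receptors, Notch1 and Notch3 rose while Notch2 and Notch4 did not pass the test. Notch3, itself a known Notch target, was at a mean of 3.97 ± 0.727 CPM (SD, n = 3), with all 3 libraries under 5 CPM, under the NICD_TCFWT label and at 45.8, 108 and 116 CPM under the NICD_TCFKO label, a log2 fold change of 4.50 ± 0.42 (adjusted p = 0.000242). Notch2 was at nearly the same level in both groups, with a log2 fold change of 0.06 ± 0.09. Of 26 tested genes that make, cut and pass on the Notch signal 15.4% were called, near the 12.4% of all genes: Rbpj and the ubiquitin ligase Itch were higher and the gamma-secretase subunit Psen2 and the Notch ligand-like Dlk1 were lower. None of these 4 calls held without NICD_TCFKO 2 or without NICD_TCFWT 1, and the calls of Rbpj, Itch and Dlk1 were also lost without NICD_TCFWT 2 or 3 or NICD_TCFKO 3, and that of Psen2 without NICD_TCFWT 3 or NICD_TCFKO 3.

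The target genes of Notch rose together. Of 17 tested, 11 were higher and 1 lower (70.6% called, against 12.4% of all genes), with a median log2 fold change of 4.50 against 0.00 for all genes. The 11 include Notch3, Il2ra, Ptcra, Tcf7 and Gata3, which are described with other lists too, so the lists overlap and are not independent. Dtx1, a ubiquitin ligase that is a standard readout of Notch, was at 0.0543, 0.154 and 0.162 CPM under the NICD_TCFWT label and at 64.7, 165 and 132 CPM under the NICD_TCFKO label. It was almost silent in the first group and well expressed in the second, with a log2 fold change of 9.89 ± 0.57 (adjusted p = 1.54e-05). Nrarp, a feedback inhibitor of Notch, was at 6.79, 6.51 and 5.17 CPM and at 75.7, 70.7 and 59.9 CPM, and had the smallest standard error of the 11 higher targets, with a log2 fold change of 3.48 ± 0.16 (adjusted p = 1.44e-06). Hes1, the repressor that most cells use to read Notch, was at 7.33, 4.83 and 1.46 CPM and at 222, 118 and 134 CPM (5.12 ± 0.83, adjusted p = 0.00559). Here NICD_TCFKO 1 was the highest of the 6 libraries, unlike for most genes. The related repressors Heyl, Hey1 and Hey2 rose as well, by 7.44, 4.92 and 6.42 on the log2 scale, whereas Hes5 did not pass the test (1.22, adjusted p = 0.0909). The exception was Myc, a growth regulator that Notch drives in T cell leukaemia: it fell by 0.60 ± 0.11 (adjusted p = 0.00604), from 346, 396 and 471 CPM to 262, 288 and 248 CPM, with no overlap. The counts of the list were 11 and 1 without any 1 of NICD_TCFWT 1, 2 and 3 and NICD_TCFKO 2 and 3, and 11 and 2 without NICD_TCFKO 1.

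**Figure D2:**
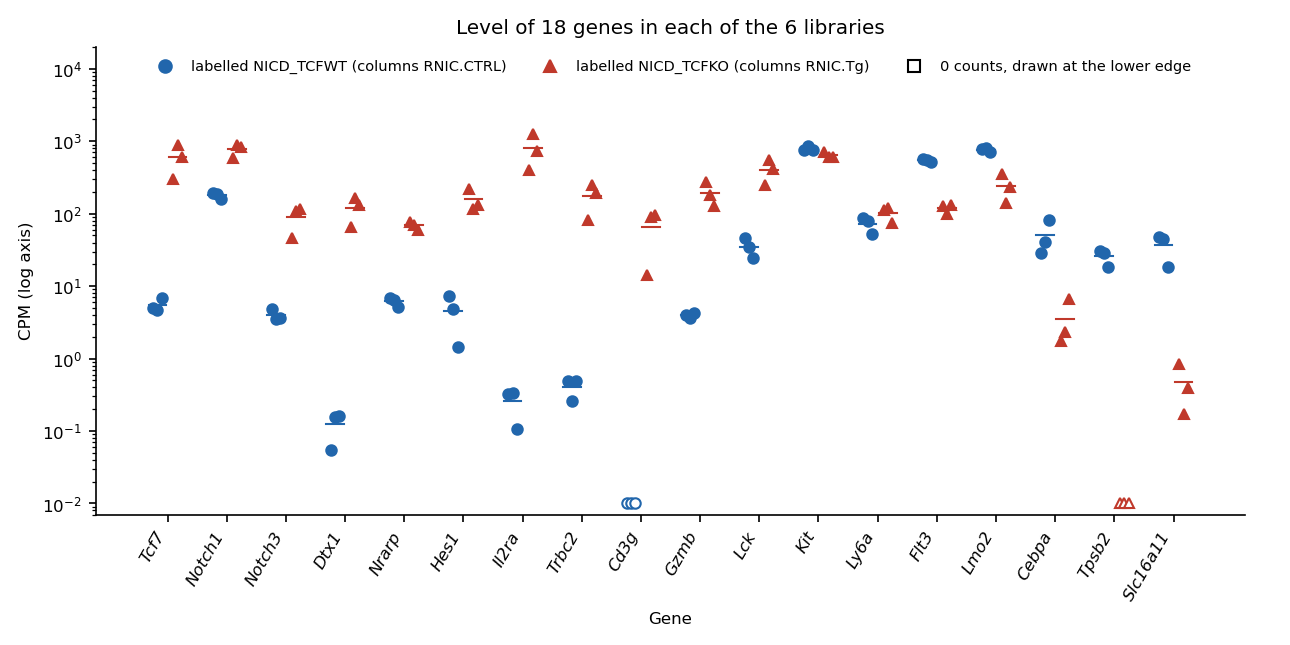
CPM of 18 genes on a log axis in each of the 6 libraries, with circles for the 3 libraries labelled NICD_TCFWT, triangles for the 3 labelled NICD_TCFKO, replicates 1 to 3 from left to right and a bar at each mean. The groups overlap only for Ly6a, and open symbols at the lower edge are libraries with 0 counts.

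TCF factors also act in the Wnt pathway. Of 14 TCF/LEF factors and co-repressors Tcf7 and Tle3 were higher (14.3%, near the 12.4% of all genes called). Lef1, the closest relative of Tcf7, was at 0.271, 0.103 and 0.622 CPM and at a mean of 3.66 ± 3.38 CPM (SD, n = 3) without passing the test (adjusted p = 0.116). Of 9 Wnt feedback and target genes, Lgr5, Apcdd1 and Ccnd1 were lower and 0 higher (33.3% called, against 12.4% of all genes). At an unadjusted p under 0.05 the count was 1 higher and 3 lower, and DESeq2 called 1 higher and limma-voom 0. Axin2, the most used Wnt readout, had a log2 fold change of 1.23 ± 0.44 (adjusted p = 0.0934). Apcdd1, a Wnt inhibitor, was at 16.7, 19.7 and 11.9 CPM and at 6.33, 5.59 and 6.42 CPM (-1.40 ± 0.25). The call of Lgr5 was lost without NICD_TCFWT 1 or 2 or NICD_TCFKO 2 or 3, and that of Ccnd1 without NICD_TCFWT 1 or 2 or any 1 library labelled NICD_TCFKO; with the replicate number as a block their adjusted p was 0.0625 and 0.0565.

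Genes of the T cell receptor stood near zero in the libraries labelled NICD_TCFWT and were expressed in all 3 labelled NICD_TCFKO. Of 9 tested members of the receptor and recombination list 8 were higher (88.9% called, against 12.4% of all genes), with a median log2 fold change of 6.79. Trbc2 (chr6:41546730-41548352, plus strand), a constant gene of the beta chain, was at 0.489, 0.257 and 0.487 CPM and at 82.0, 246 and 192 CPM (8.72 ± 0.86, adjusted p = 0.000475). Ptcra, the surrogate alpha chain of the pre-T cell receptor whose promoter is printed above, had 0 counts under the NICD_TCFWT label and 1.73, 9.01 and 14.8 CPM under the NICD_TCFKO label, at least 105-fold higher against a floor of 3 counts per library (0.0814 CPM). The recombinases Rag1 and Rag2, which cut receptor genes, rose by 3.36 ± 0.57 and 2.21 ± 0.47. The constant genes of the gamma chain Tcrg-C1 and Tcrg-C2 rose from 0.447 and 0.232 CPM to 160 and 118 CPM. Trac, the constant gene of the alpha chain, was under the filter, with 0 counts in the libraries labelled NICD_TCFWT and a mean of 0.0244 CPM under the NICD_TCFKO label. Dntt, the polymerase that adds bases at receptor joins, did not pass the test (242 and 143 CPM). Trbc1 and Trbc2 are close copies of each other, as are Tcrg-C1 and Tcrg-C2, so the split of reads within each of these pairs is uncertain. The call of Tcrg-C4 was lost without any 1 of NICD_TCFWT 1, 2 and 3 and NICD_TCFKO 2 and 3, and that of Rag2 without NICD_TCFWT 2 or 3 or NICD_TCFKO 2.

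The beta locus rose as a block of short segments. The 2 Trbd, 14 Trbj and 2 Trbc genes tested on chromosome 6 were each higher, by 5.83 to 10.15 on the log2 scale. Prss2 (chr6:41521787-41525079, plus strand), a trypsinogen of the pancreas whose gene lies inside the beta locus, was the next tested gene upstream, 11.4 kb before Trbd1 in start position. It was at 0.0271, 0.0257 and 0.0812 CPM under the NICD_TCFWT label and at 18.9, 60.5 and 46.0 CPM under the NICD_TCFKO label (9.78 ± 0.65, adjusted p = 2.07e-05). Ephb6, the next tested gene beyond Trbc2, did not pass the test (0.64 ± 0.24, adjusted p = 0.103). The call of Trbd2, at a mean of 0.278 CPM in the libraries labelled NICD_TCFKO, was lost without any 1 of NICD_TCFWT 1, 2 and 3 and NICD_TCFKO 2 and 3 and with the replicate number as a block (adjusted p = 0.105).

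Of 16 tested CD3 chains and proximal signalling genes 12 were higher and 0 lower (75% called, against 12.4% of all genes). The median log2 fold change was 3.08. Cd3g (chr9:44969572-44980431, minus strand) had 0 counts under the NICD_TCFWT label and was at 14.3, 89.8 and 94.6 CPM under the NICD_TCFKO label, at least 813-fold higher. Lck, the kinase that starts receptor signalling, was already present at 46.4, 34.6 and 24.2 CPM and rose to 250, 556 and 411 CPM (3.53 ± 0.46, adjusted p = 0.00177). The adaptor Lcp2 rose least of those with the smallest p, by 0.96 ± 0.09, from 128, 116 and 113 CPM to 214, 257 and 226 CPM. NICD_TCFKO 1 was the lowest of its group for Cd3e, at 3.88 CPM against 26.0 and 28.6 CPM, as it was for Cd3g, Lck and Lcp2. The list count was 14 without NICD_TCFKO 1, 7 without NICD_TCFKO 2 and 8 without any 1 of the other 4 libraries. The calls of Cd3d and Cd3e were lost without any 1 of those 5, and that of Cd3g without NICD_TCFKO 2. Beyond Cd3e on chromosome 9 Mpzl2, Mpzl3 and Jaml, which encode adhesion proteins, were also higher, and on the other side Ube4a, Atp5l and Kmt2a did not pass the test. The call of Mpzl3 was lost without NICD_TCFWT 2 or 3 and that of Jaml without any 1 of NICD_TCFWT 1, 2 and 3 and NICD_TCFKO 2 and 3, and its adjusted p was 0.0716 with the replicate number as a block.

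**Figure D3:**
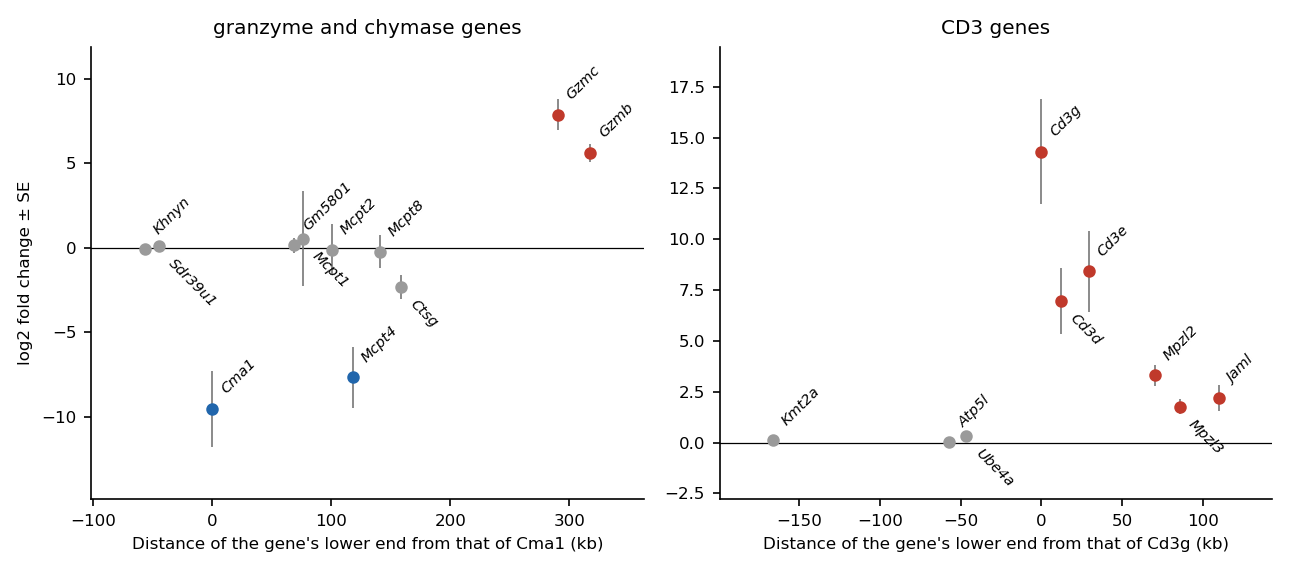
Fitted log2 fold change ± SE of every tested gene around the granzyme and chymase genes of chromosome 14 (left) and around the CD3 genes of chromosome 9 (right), against the distance of its lower end from that of Cma1 or Cd3g in kb. Red genes were higher, blue lower and grey without a call: Cma1 and Mcpt4 lie below 0 and Gzmc and Gzmb above it within 317.4 kb, and the 3 CD3 genes and 3 neighbours on 1 side lie above 0.

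Surface antigens of early T cells followed, 8 of 16 tested being higher and 0 lower (50% called, against 12.4% of all genes). Il2ra (CD25), the interleukin-2 receptor chain that marks T cell commitment, was at 0.326, 0.334 and 0.108 CPM under the NICD_TCFWT label and at 395, 1265 and 745 CPM under the NICD_TCFKO label. This was the largest gain in mean CPM of any tested gene but Xist, which follows sex, and a log2 fold change of 11.59 ± 1.09 (adjusted p = 0.000403). Thy1, present on all T cells, went from 20.1, 19.2 and 11.5 CPM to 81.0, 196 and 186 CPM (3.19 ± 0.37). Il7r, the interleukin-7 receptor of lymphoid progenitors, rose by 3.76 ± 0.53, and Ly6d and Cd7 by 7.69 ± 0.96 and 5.47 ± 0.74. Markers of later or mature T cells were another matter: Cd4 was at 4.15 ± 0.303 CPM (SD, n = 3) under the NICD_TCFWT label and at 3.08, 3.58 and 3.19 CPM under the NICD_TCFKO label (adjusted p = 0.406), Cd28 at 1.14 and 1.21 CPM, and Cd2 and Cd8b1 were below the filter. Cd8a was called higher at 0.125, 4.70 and 3.88 CPM against 0, 0 and 0.0812 CPM, a call that was lost without any 1 of NICD_TCFWT 1, 2 and 3 and NICD_TCFKO 2 and 3. Of the 12 tested antigens that a lineage gate can remove, Cd3e, Cd8a and Cd5 were higher (25% called, against 12.4% of all genes).

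Of 22 tested transcription factors of the T lineage 9 were higher and 0 lower (40.9% called, against 12.4% of all genes). Bcl11b, the factor that seals commitment, was at 0.624, 0.463 and 0.379 CPM and at 17.8, 86.3 and 94.7 CPM (7.07 ± 1.23, adjusted p = 0.00745). Gata3 was at 12.9, 10.6 and 10.7 CPM and at 32.8, 68.7 and 52.0 CPM (4.49-fold, adjusted p = 0.00107). Ets1 rose by 1.85 ± 0.26, while factors that progenitors already express at over 100 CPM rose by less, Ikzf2 (Helios) by 0.75 ± 0.08 and Runx1 by 0.61 ± 0.12. Among E proteins and their inhibitors Tcf12 rose by 0.65 ± 0.10 and Id2, which blocks E proteins in innate lymphoid cells, by 2.27 ± 0.52. The call of Id2 was lost without any 1 of NICD_TCFWT 1, 2 and 3 and NICD_TCFKO 2 and 3.

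**Figure D4:**
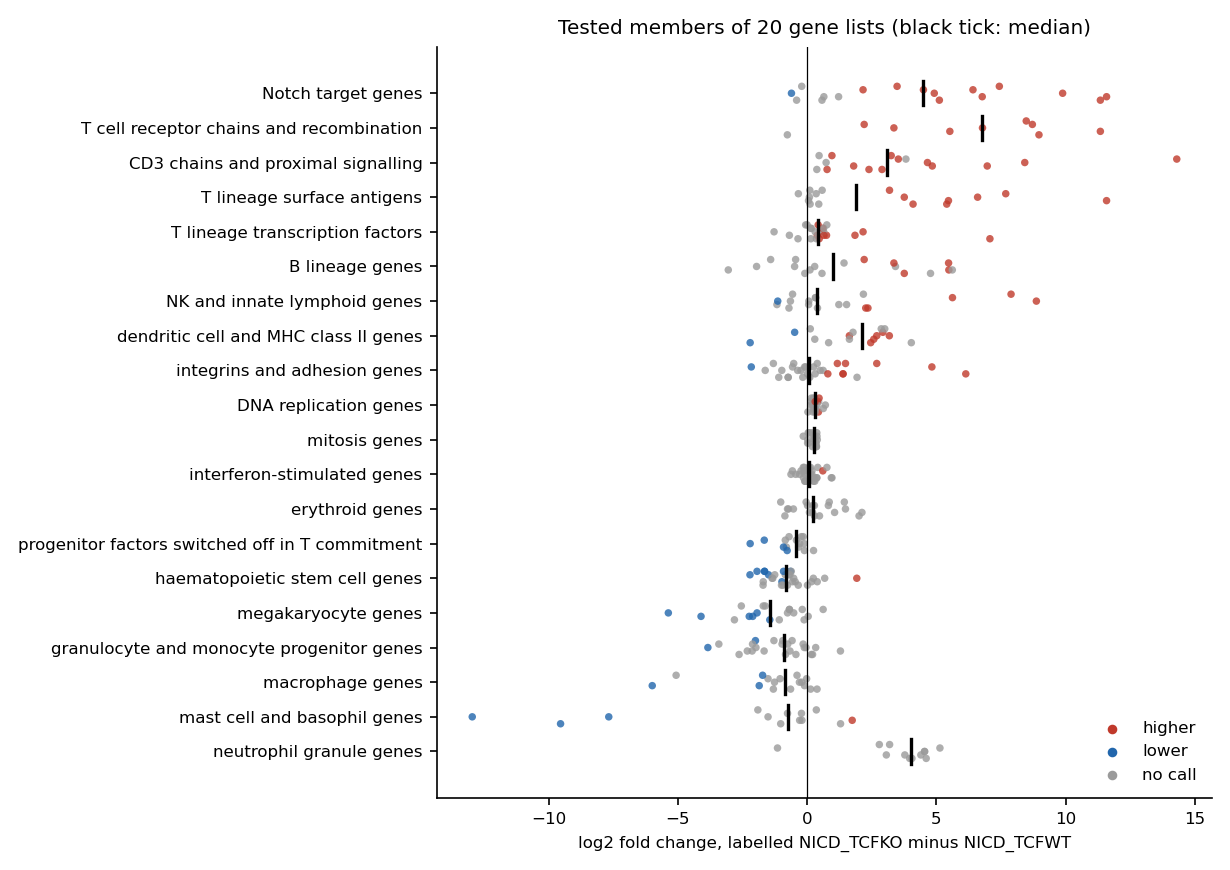
Each point is a tested member of 1 of 20 gene lists, at its fitted log2 fold change (libraries labelled NICD_TCFKO minus NICD_TCFWT), red where higher, blue where lower and grey without a call, with a black tick at the median of the list. The Notch target, T cell receptor, CD3, T surface and dendritic cell and MHC class II lists have medians above 1.8. The neutrophil list is high with 0 calls. Lists with medians below 0 are those of stem cell, progenitor factor, megakaryocyte, granulocyte, macrophage and mast cell genes.

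Stem cell and progenitor regulators fell in part. Of 15 factors known to be switched off during T commitment 4 were lower and 0 higher (26.7% called, against 12.4% of all genes). The median log2 fold change was -0.41. Flt3, the cytokine receptor of multipotent progenitors, was at 570, 559 and 515 CPM and at 127, 99.4 and 131 CPM (-2.20 ± 0.30, adjusted p = 0.00199). Lmo2, a bridging factor of stem cells and a T cell oncogene, was at 779, 807 and 702 CPM and at 350, 142 and 233 CPM (-1.66 ± 0.26, adjusted p = 0.00334). Mef2c fell by 0.77 ± 0.12. The groups did not overlap for these 3 genes, and NICD_TCFKO 1 was the highest of its group for Lmo2 and Mef2c. Meis1, the fourth, fell by 0.91 ± 0.25, but its adjusted p was 0.0588 with the replicate number as a block, and its call was lost without any 1 of NICD_TCFWT 1, 2 and 3 and NICD_TCFKO 2 and 3. Spi1, Lyl1, Hhex and Bcl11a did not pass the test. The lower count of this list was 7 without NICD_TCFKO 1 and 3 without any 1 of the other 5 libraries. Among 30 stem cell genes 8 were lower and 1 higher (30% called, against 12.4% of all genes, median -0.80). Cd34 fell from 1151 to 586 CPM on average (-0.97 ± 0.19), and Cdkn1c, an inhibitor of the cell cycle in resting stem cells, by 2.21 ± 0.41. Mycn was the 1 that rose, from 52.5, 41.9 and 33.4 CPM to 183, 140 and 162 CPM (1.92 ± 0.22). The lower count of this list moved between 2 (without NICD_TCFWT 1 or 3), 3 (without NICD_TCFWT 2 or NICD_TCFKO 3), 4 (without NICD_TCFKO 2) and 13 (without NICD_TCFKO 1).

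In the granulocyte and monocyte progenitor list 8.33% of tested genes were called and in the macrophage list 18.8%, against 12.4% of all genes. All of these calls were lower, a direction called for 5.15% of all genes. Cebpa, the master regulator of granulocyte and monocyte progenitors, was at 28.5, 41.3 and 82.7 CPM under the NICD_TCFWT label and at 1.75, 2.32 and 6.57 CPM under the NICD_TCFKO label (-3.84 ± 0.65, adjusted p = 0.00603). Csf3r, the receptor of the granulocyte growth factor, fell by 2.00 ± 0.38. These were the only 2 of 24 tested members of the granulocyte and monocyte progenitor list that passed the test, and 8 passed with sex as a covariate. Its most abundant gene Mpo, a granule enzyme, was at 1253, 2163 and 4676 CPM and at 368, 225 and 713 CPM without passing it (adjusted p = 0.0525). The libraries labelled NICD_TCFWT differed among themselves here, the summed CPM of the list being 3666, 5091 and 9632. In the macrophage list 3 of 16 were lower, Cd5l, Hmox1 and Mrc1, and the adjusted p of Mrc1 was 0.0562 with the replicate number as a block. The call of Mrc1 was also lost without NICD_TCFWT 2 or 3 or NICD_TCFKO 1 or 2. Cd5l was low in both groups, at means of 0.728 CPM under the NICD_TCFWT label and 0.00807 CPM under the NICD_TCFKO label. Of 12 neutrophil granule genes, with a median log2 fold change of 4.01, 0 passed the test in edgeR, 0 at an unadjusted p under 0.05, and 0 in DESeq2 or limma-voom. S100a9, for one, was at 0.163, 0.334 and 4.76 CPM and at 0.125, 5.71 and 105 CPM. The chemokine Ccl9 and the hexokinase Hk3, which belong to none of these lists, fell by 3.03 ± 0.49 and 3.40 ± 0.38.

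Megakaryocyte genes were lower for 6 of 19 tested (31.6%, against 5.15% of all genes called lower, median -1.44). Pf4, the platelet factor 4 of granules, was at 19.9, 15.8 and 32.8 CPM and at 1.05, 0.315 and 2.61 CPM (-4.10 ± 0.68, adjusted p = 0.00478). Vwf, which also marks platelet-biased stem cells, fell by 1.94 ± 0.42, a call lost without NICD_TCFWT 1 or 3. Of 20 erythroid genes 0 passed the test, an unadjusted p under 0.05 was found for 1 higher and 1 lower gene, 0 was higher and 1 lower in DESeq2, and 0 were called in limma-voom.

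Among mast cell genes some proteases fell and another rose. The proteases Tpsb2 and Cma1 were present in every library labelled NICD_TCFWT and nearly gone from those labelled NICD_TCFKO. Tpsb2, a tryptase (chr17:25366305-25369098, plus strand), was at 30.5, 28.9 and 18.6 CPM and at 0 counts in all 3, at least 319-fold lower. Cma1, a chymase, went from 41.8, 23.0 and 16.1 CPM to 0, 0 and 0.0996 CPM, and Mcpt4 from 27.4, 16.4 and 8.36 CPM to 0.05, 0.194 and 0 CPM. The protease Cpa3, by contrast, rose from 63.0, 61.8 and 59.9 CPM to 172, 263 and 184 CPM (1.75 ± 0.25, adjusted p = 0.00236), and Gata1, Fcer1a and Ms4a2 did not pass the test. Cma1 and Mcpt4 share a cluster on chromosome 14 with the granzymes Gzmc and Gzmb, enzymes of cytotoxic lymphocytes, which lie 290.0 and 317.4 kb from Cma1 and moved the other way. Gzmb was at 4.04, 3.60 and 4.22 CPM and at 275, 182 and 128 CPM (5.63 ± 0.52, adjusted p = 0.00034), and Gzmc had 0 counts under the NICD_TCFWT label (at least 9.5-fold higher). Between the chymases and the granzymes Mcpt8 and Ctsg did not pass the test. These proteases are related in sequence, so reads could be shared between copies. Of the 13 mast cell genes tested 3 were lower and 1 higher (30.8% called, against 12.4% of all genes). The lower count was 1 without NICD_TCFWT 1 or 2 or NICD_TCFKO 2 or 3. The call of Cma1 was lost without any 1 of the 6 libraries, and that of Mcpt4 without any 1 of NICD_TCFWT 1 and 2 and NICD_TCFKO 1, 2 and 3 and with the replicate number as a block (adjusted p = 0.0512).

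Some genes of B, natural killer and dendritic cells were also higher. In the B lineage list 5 of 18 were higher and 0 lower (27.8% called, against 12.4% of all genes). These were Il7r, Rag1 and Rag2, which T progenitors share, and Blk and Cd22, whereas Cd79a and Cd79b did not pass the test. Without NICD_TCFWT 2 or 3 the count was 3. Among natural killer and innate lymphoid genes Gzma, Gzmb, Gzmc, Klrd1 and Id2 were higher and Il18rap was lower (33.3% called). Tbx21 and Ncr1 did not pass the test. In the dendritic cell and MHC class II list 6 of 16 were higher and 2 lower (50% called, against 12.4% of all genes). Cd74, the invariant chain of MHC class II, was at 28.4, 15.4 and 37.3 CPM and at 83.9, 415 and 236 CPM (3.18 ± 0.61), and H2-Aa, H2-Eb1, H2-Ab1, their activator Ciita and the integrin Itgax rose with it, while H2-DMa and Flt3 fell. Siglech, Xcr1 and Clec9a, markers of dendritic cells, did not pass the test. The count of higher genes in this list was 2 without NICD_TCFWT 1 or 2, and that of the natural killer list 2 without NICD_TCFWT 2 or 3 or NICD_TCFKO 2 and 3 without NICD_TCFWT 1 or NICD_TCFKO 3.

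Cell cycle genes moved little. Of 20 DNA replication genes Mcm4, Tyms, Cdc45 and Uhrf1 were higher (20%, against 12.4% of all genes called, median of the list 0.30), by 0.31 to 0.46 on the log2 scale. Their calls were lost without any 1 of NICD_TCFWT 1, 2 and 3 and NICD_TCFKO 2, except for that of Uhrf1, which was lost without NICD_TCFWT 3. All 20 had small log2 fold changes above 0 (0.03 to 0.71). The libraries labelled NICD_TCFKO lay wholly above the others for 16 of them, as they did for 3147 of all 16024 genes tested. At an unadjusted p under 0.05 in edgeR 14 were higher and 0 lower. DESeq2 called 8 higher and limma-voom 4, with 0 lower in both. Of 20 mitosis genes 0 passed the test in edgeR, against 6 higher at an unadjusted p under 0.05, 2 higher in DESeq2 and 0 in limma-voom. Bcl2, a survival factor, fell from 163, 178 and 199 CPM to 63.0, 88.8 and 76.9 CPM (-1.24 ± 0.18, adjusted p = 0.00202). Interferon-stimulated genes, of interest because poly(I:C) induces interferon, were called for 1 of 30 (Irf1, 3.33%, against 12.4% of all genes), with a median of 0.07. That call was lost without any 1 of NICD_TCFWT 1, 2 and 3 and NICD_TCFKO 2 and 3 and with the replicate number as a block (adjusted p = 0.0515).

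The 6 libraries of the groups without N1IC in their labels share no sample with those above, and differ by the same Tcf7 label. The 2 differences ran in opposite directions for many genes. Of the 1161 genes higher here 513 were lower and 29 higher in the libraries labelled NOTCHWT_TCFKO than in those labelled NOTCHWT_TCFWT, and of the 825 lower here 425 were higher and 7 lower there. Of all genes tested, 10.8% were higher and 10.5% lower in that pair. The test of the difference itself, the interaction of both labels, was positive for 2219 genes and negative for 2170 (13.8% and 13.5% of those tested). Among the genes named for their interaction Dtx1 had the largest positive value. It was at 0.124 ± 0.0602 and 121 ± 51.3 CPM (SD, n = 3) in the pair labelled with N1IC. In the pair labelled without it Dtx1 was at 85.4 ± 5.67 and 0.208 ± 0.189 CPM. The pairs are named by their labels, which the levels of Notch1 and Dtx1 did not follow. The opposite directions are therefore not a measure of the effect of N1IC. Il7r was an exception, higher in both pairs (3.76 here and 4.70 there). Bcl11b and Tcrg-C2, which rose here by 7.07 and 8.97, differed there by -0.18 and 0.03 (adjusted p = 0.938 and 0.992). In the Notch target list 11 genes had a positive interaction and 1 a negative one, and in the macrophage list, which had 3 calls here, 15 of 16 had a negative one.

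**Figure D5:**
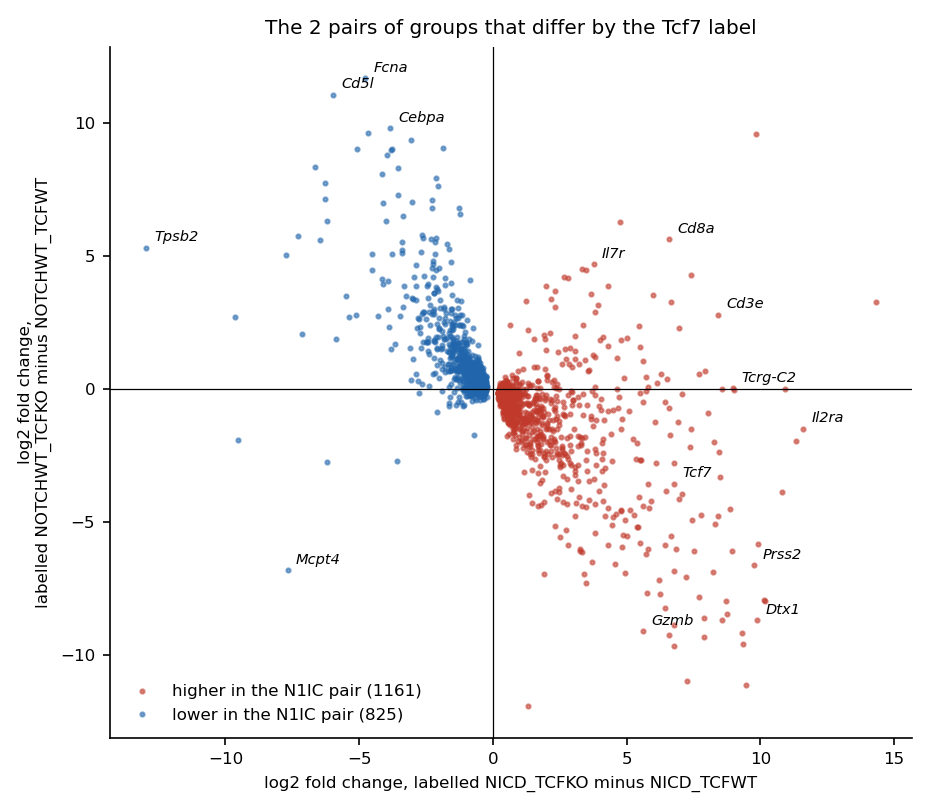
Each point is 1 of the 1986 genes called here, with its log2 fold changes, labelled Tcf7 deleted minus labelled wild type. The x axis is the pair with N1IC in its labels (the N1IC pair) and the y axis the pair without. The pairs are named by label, which the level of Notch1 did not follow. Most red points (higher in the N1IC pair) lie below 0 on the y axis and most blue points above it, as the counts of 513 and 425 genes called in opposite directions give; Il7r lies above 0 on both axes and Mcpt4 below.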

How the data were processed

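RNA was sequenced as single-end reads of 75 nt. The authors deposited raw counts per Ensembl gene, and per the submitters' processing notes the build was mm10 and the tools were featureCounts 1.4.4, HISAT2, cutadapt 1.9.1, limma, edgeR 3.28.0 and bcl2fastq 2.17. Their roles and settings, strand included, are not given in the sources used here. The deposited log2 table matched log2 CPM with an offset of 0.5, recomputed from the counts, and served as an alternative only. Totals of the 12 libraries were 30453271 to 43790674 counts, and 0 columns were unmatched to a sample. The 37 mitochondrial genes had 0 counts in all libraries.

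Counts of all 12 libraries were fitted together with edgeR 4.0.16 in R 4.3.3 (filterByExpr, TMM, quasi-likelihood test, Benjamini-Hochberg adjustment over 16024 genes, threshold 0.05), with 1 mean per group and 3 contrasts. CPM are TMM-scaled. Values after ± are SE for log2 fold changes and SD (n = 3) for CPM. The SE was calculated back as the absolute log2 fold change over the square root of the F of the quasi-likelihood test. For genes near 0 counts in a group it depends on the prior count, as the fold change does. Alternatives used DESeq2 1.42.0, limma 3.58.1, other scaling and filters, covariates for sex (from Xist) and for a sequencing sheet inferred from the S numbers in the titles, and each library left out. In simulated counts for this comparison (15789 genes) 70.1% of 67 genes changed 2-fold, 88.1% of 67 changed 4-fold and 95.5% of 66 changed 8-fold were called, with 5 false calls. The changed genes were drawn from those with a mean of at least 1 CPM over the 12 libraries. Simulated counts were independent, with no effect of sex, sheet, cell mixture or a deviating library. Apart from the changed genes all groups had the same simulated means, and the changed genes were a smaller share than the genes called in the data. These rates therefore do not cover genes at lower levels, such effects or a larger share of changed genes.

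The labels number the replicates of both groups 1 to 3. Deviations of same-numbered libraries from their group means correlated at 0.3141, 0.1001 and 0.4512, so the numbers were taken as pairing the libraries, from the data and not from a stated litter or day. This pairing is uncertain, as NICD_TCFWT 2 correlated more with NICD_TCFKO 1 (0.253) than with NICD_TCFKO 2. Both libraries numbered 1 came from males, and both numbered 3 from females and the second inferred sheet. Whether sex or sheet gave these correlations was not tested. The main fit is unpaired, and the replicate number as a block served as an alternative. The members and lists were chosen with earlier results of these data known. Genes named by rule were the 15 per direction with the largest fold change and 10 with the largest CPM difference (adjusted p under 0.05, at least 5 CPM in the higher group, no overlap of the groups), 5 per direction by interaction, up to 4 per list by p, and a few set genes, Tcf7 and Notch1 first. The ranking passed over predicted genes, receptor segments and genes linked to sex. Other genes named were chosen after their values were seen. A group at 0 counts was given a floor of 3 counts per library.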

Additional observations from a re-analysis of the deposited data

Results flagged for a closer look

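The difference that went with the Tcf7 label was not the same in the pair labelled with N1IC and the pair labelled without it. This rests on a test of the difference itself, which does not say that the directions were opposite. The interaction in edgeR's quasi-likelihood test was positive for 2219 genes and negative for 2170. Among genes with at least 5 CPM in the highest group, receptor segments and predicted genes left out, the largest positive values, on the log2 scale, were 18.56 for Dtx1, 16.68 for Trbc2, 16.38 for Prss2, 14.72 for Gzmb and 14.28 for Cldn2, with adjusted p from 4.31e-07 to 2.46e-05. Gzmb was at 3.95 and 195 CPM under the labels NICD_TCFWT and NICD_TCFKO and at 1009 and 1.86 CPM under NOTCHWT_TCFWT and NOTCHWT_TCFKO. By the same rule the largest negative values were -18.28 for Tpsb2, -17.07 for Cd5l, -16.48 for Fcna, -14.02 for Slc16a11 and -13.65 for Cebpa. Cebpa was at 50.8 and 3.55 CPM in the first pair and at 0.0636 and 61.1 CPM in the second. Several of these means rest on libraries at or near 0 counts, where the fitted size depends on the prior count. The sort gate differed between the pairs, so gate and N1IC label cannot be told apart. Sex was unbalanced as well. Xist was at 3720, 4600 and 3550 CPM under NOTCHWT_TCFWT and at 2160, 3250 and 0.727 CPM under NOTCHWT_TCFKO. NOTCHWT_TCFKO 1 also had Y-linked genes at 157 CPM in sum, and the sex covariate counted it with the libraries high in Xist. With that covariate the interaction was positive for 2100 genes and negative for 2080.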

How the results depend on the processing

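Counts of called genes depended on the test and on the libraries kept, and no gene named by rule changed direction. DESeq2 called 1468 genes lower, and limited to the first inferred sequencing sheet, which holds 4 of the 6 libraries and was tried after seeing the data, 230 were higher and 111 lower. Leaving out 1 library at a time gave 564 to 1463 higher and 332 to 1225 lower genes, and 1703 to 2244 positive and 1774 to 2436 negative interactions. With the replicate number as a block, the pairing taken from the data, 902 genes were higher and 649 lower, with 1983 positive and 1971 negative interactions. Of the 136 called genes named by rule, 57 kept their call in every alternative that gave a value for them, of 23 run. The block ended 11 of these calls, the sex covariate 4, limma-voom 11, a fit of the 6 libraries alone 20, and the first sheet alone 74. The cause was not tested. Among called genes not in that rule the block also ended calls, given beside those that the text describes. Beyond those it changed no other call that the text names, except Itgb7 (adjusted p = 0.0661) and Hoxa3 (adjusted p = 0.0818). A level under 0.0814 CPM, 3 counts in the shallowest of the 6 libraries, could not be told from 0 at this depth.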

Other observations

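Receptors for cytokines and growth factors moved in both directions: of 30 tested 6 were higher and 5 lower (median log2 fold change -0.20). This was 36.7% called, against 12.4% of all genes. Il9r, the interleukin-9 receptor, was at 0.923, 0.566 and 0.243 CPM under the NICD_TCFWT label and at 10.4, 21.6 and 16.5 CPM under the NICD_TCFKO label (4.80 ± 0.56). Il12rb2, a chain of the interleukin-12 receptor, rose by 1.99 ± 0.22, and Il6ra, the interleukin-6 receptor, fell from 29.0, 38.1 and 56.4 CPM to 6.60, 6.46 and 14.4 CPM (-2.17 ± 0.40). Pdgfrb, the receptor of a growth factor for mesenchymal cells, was at 83.4, 103 and 86.7 CPM and at 521, 414 and 440 CPM (2.33 ± 0.20, adjusted p = 0.000107), with no overlap.

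Adhesion genes were higher for 8 of 30 and lower for 1 (30% called, against 12.4% of all genes). Itgal, a chain of the lymphocyte integrin LFA-1, was at 167, 200 and 195 CPM and at 473, 518 and 481 CPM (1.39 ± 0.12). Cdh1 (E-cadherin), which joins epithelial cells, went from 0.597, 0.591 and 1.35 CPM to 29.4, 87.1 and 63.3 CPM (6.14 ± 0.80). In the pair labelled without N1IC its difference was 0.24 (adjusted p = 0.829). The call of Itgb7 was lost with sex as a covariate and without any 1 of NICD_TCFWT 1, 2 and 3 and NICD_TCFKO 2 and 3. That of Itgb5, the gene that was lower, was lost without NICD_TCFWT 1 or 2 or NICD_TCFKO 2 or 3.

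The 16 tested Hoxa and Hoxb genes, which mark stem cell identity, had log2 fold changes from -1.79 to -0.22. Of these 3 passed the test (Hoxa10, Hoxa2 and Hoxa3), which is 18.8%, against 12.4% of all genes called and 5.15% called lower. The count was 0 without NICD_TCFWT 1 or NICD_TCFKO 2, 1 without NICD_TCFKO 3 and 2 without NICD_TCFWT 2 or 3. Counting genes that were at 5 CPM or more in every library of a group and under 1 CPM in every library of the other, 30 were on in the libraries labelled NICD_TCFKO and 4 in those labelled NICD_TCFWT (Tpsb2, Cma1, Mcpt4 and Slc16a11). Cd160, a receptor of cytotoxic lymphocytes, was among the 30, at 0.109, 0.103 and 0.162 CPM and at 13.4, 33.8 and 18.2 CPM.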
